A study of Rattus norvegicus with 68 samples.

Results

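Mitochondrial ribosomal protein genes, defined by symbols that begin with Mrpl or Mrps and a number, were followed in the blood of rats given acetaminophen, a pain reliever that injures the liver at high doses. The arrays measured 44 of them, with 46 probes, among 9653 named genes. The rat reference annotation holds 78 protein-coding symbols of this form, so 56.4% of the family was measured. By their place in mammalian mitoribosome structures, 31 of the 44 belong to the large subunit and 13 to the small subunit. Mrps30 and Mrps18a, named for the small subunit, sit in the large one. A bacterial homologue is known for 30 of the proteins and none for the other 14.

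Male F344/N rats, an inbred strain, aged 10-12 weeks received acetaminophen by oral gavage, divided into 2 portions, at 150, 1500 or 2500 mg/kg in 0.5% ethyl cellulose, and blood RNA was taken at 6, 12 or 24 h. Each of the 9 groups held 4 rats, except the 150 and 1500 mg/kg groups at 12 h, which held 3. Each of the 34 rats was compared on 2 arrays, with the dyes exchanged, with control RNA from rats that had received the vehicle alone at the same time. The study's design text describes that RNA as a pool of 4 animals at 6 and 12 h and of 6 animals at 24 h, whereas the labels at 6 and 12 h carry a single rat number. Values are log2 ratios of acetaminophen over vehicle, 1 per rat, averaged over its 2 arrays. Their direction rests on the usual order of the dyes (Cy5 over Cy3), which the labels do not state for the deposited values, so it is likely rather than settled. With the opposite order every sign below would turn.

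Mitochondrial ribosomes translate the messages that mitochondrial DNA encodes, all of which specify core subunits of the respiratory chain and ATP synthase. Their own proteins are encoded in the nucleus, made in the cytosol and imported, and they assemble with ribosomal RNA transcribed from mitochondrial DNA. Compared with bacterial ribosomes, the mammalian ones have more protein and less RNA. In blood, lymphocytes, monocytes and platelets contain mitochondria, neutrophils have few, and mature red cells have none. Acetaminophen's reactive metabolite is known to damage mitochondria in liver cells.

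Nuclear genes for mitochondrial proteins often have compact promoters with sites for NRF1, ETS family factors (among them GABP, also called NRF2) and YY1, so the start regions were searched for these motifs. RefSeq (GRCr8) start regions of 300 bases, from 250 before to 50 after the start site, were matched for 35 of the 44 genes. The letters CCGGAAG (ETS site), read on both strands, occurred in 12 windows (34.3%), against 8.75% of all 33469 windows and 14.5% of the windows of measured genes. The letters AAGATGG (YY1 site) occurred in 9 (25.7%), against 7.01% of all windows and 7.67% of those of measured genes. The letters GCGCATG (NRF1 core) occurred in 5 (14.3%), against 3.77% and 5.81%. At least 1 of the 3 motifs was found in 21 windows, in 9 of the 17 of genes that were lower in some comparison below. A match is only a description of the letters and not a bound site.

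Stretches of 4 start regions are shown because the results below turn on their genes: Mrps15 had the largest called fall, Mrpl27 fell late and has an ETS match, Mrpl44 was called in both directions and has an NRF1 match, and Mrps11 and Mrpl46 share a start region. Each sequence ends at the base before the start site, on the + strand of GRCr8, with motif letters in capitals. They lie at chr5:143605991-143606140 (Mrps15), chr10:80092195-80092344 (Mrpl27), chr9:88554900-88555049 (Mrpl44) and chr1:142117031-142117263 (Mrps11). The capitals mark CCGGAAG in Mrpl27 and 2 overlapping matches of GCGCATG, 1 on each strand, in Mrpl44.
Mrps15: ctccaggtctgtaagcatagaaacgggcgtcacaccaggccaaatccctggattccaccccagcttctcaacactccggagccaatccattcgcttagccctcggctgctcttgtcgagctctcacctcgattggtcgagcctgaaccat
Mrpl27: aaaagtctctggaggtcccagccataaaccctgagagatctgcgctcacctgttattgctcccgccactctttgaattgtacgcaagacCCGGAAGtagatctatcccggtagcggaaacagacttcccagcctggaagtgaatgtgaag
Mrpl44: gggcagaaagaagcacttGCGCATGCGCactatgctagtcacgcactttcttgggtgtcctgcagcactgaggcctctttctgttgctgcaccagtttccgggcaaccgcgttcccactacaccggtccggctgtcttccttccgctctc
Mrps11: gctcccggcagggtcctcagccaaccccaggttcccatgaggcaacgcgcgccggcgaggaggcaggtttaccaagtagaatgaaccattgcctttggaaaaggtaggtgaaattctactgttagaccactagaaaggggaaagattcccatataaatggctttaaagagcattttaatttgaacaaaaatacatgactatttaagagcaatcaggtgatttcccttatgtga
None of the 3 motifs lies in the printed stretches of Mrps15 and Mrps11. The Mrps11 stretch is the whole region between its start site and that of Mrpl46, which runs the opposite way with 234 bases between the start sites.

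A few rats stood apart and are given with the results they touch. Rat 4137 (2500 mg/kg, 12 h) had ratios close to 0, with an SD over all genes of 0.135, against 0.174 to 0.600 in the others. Rat 3631 (2500 mg/kg, 24 h) had 1 array that correlated at r = -0.24 over probes with the mean of all other arrays, of both dye orientations. Ratios were taken here as deposited, and the next lowest r was 0.363. Over the members' probes, the 2 arrays of a rat, turned the same way, correlated between -0.972 and 0.641, and positively in 8 of 34 rats, so probe-specific dye differences were large on single arrays and each value rests on the mean of both. Exact ratios of 0 made up 20 of the 3128 member array values, 19 of them for Mrps5, whose values varied most between rats. For the cell types of blood, 15 T cell, 6 B cell, 14 neutrophil, 15 monocyte and macrophage, 19 erythroid and 8 platelet markers were measured, and 0 of them had a ratio of 0 in every rat. Ratios carry no absolute level, so which of these cells dominated a sample cannot be read from them.

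At 6 h after 1500 mg/kg, 15 of the 44 genes (34.1%) were lower than in the vehicle control and 1 was higher (limma, Benjamini-Hochberg adjusted p under 0.05 over all 9653 genes). Of all genes, 9.24% were lower and 3.48% higher in the same comparison. The median member ratio was -0.082, against 0.0069 over all genes, and 24 members were below 0 in every one of the 4 rats. How many of all genes were below 0 in all 4 rats was not counted, and these rats share 1 control RNA. In whole blood, fewer cells of a type and less RNA per cell cannot be told apart. These tests take the control RNA as fixed and leave out its own spread. With standard errors widened as for a pool of vehicle animals that vary like treated ones, 2 members stayed called at 1500 mg/kg and 6 h, Mrps9 and Mrpl55, where 2.44% of all genes were lower. The pool was taken as 4 animals, as in the design text. If the control was a single animal, as the labels at 6 h may mean, the widening would be larger, and this was not tried. Without rat 3591, 9 members were lower and 1 higher, where 5.35% of all genes were lower. Without rat 3592, 8 were lower and 1 higher, where 5.46% of all genes were lower.

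Among small subunit genes, Mrps15, whose bacterial homologue S15 binds ribosomal RNA early in assembly, had log2 ratios of -1.14, -1.72, -0.96 and -0.91 after 1500 mg/kg at 6 h. All 4 rats lay far below the vehicle control, with a mean of -1.18 ± 0.37 (SD, n = 4; limma adjusted p = 0.00162), the largest called fall in this group. Mrps9, homologous to bacterial S9 of the small subunit's head, had -0.28, -0.35, -0.26 and -0.24. Its fall was smaller but close in all 4 rats, -0.28 ± 0.048 (SD, n = 4; limma adjusted p = 5.84e-05). Mrps34, which has no bacterial homologue and is needed in mice for a stable small subunit, had -0.20, -0.19, -0.19 and -0.30. It averaged -0.22 ± 0.052 (SD, n = 4; limma adjusted p = 0.00229). Mrps23, which also has no bacterial homologue, had -0.77, -0.72, -0.65 and -0.64. Its mean was -0.69 ± 0.063 (SD, n = 4; limma adjusted p = 0.0149), and its 2 probes differed, with -0.32 (adjusted p = 0.0848) and -1.07 (adjusted p = 0.0318). Mrps12, the homologue of the decoding protein S12, fell least of the called genes, by 0.11 ± 0.031 (SD, n = 4; limma adjusted p = 0.0157). Mrps33 was the remaining small subunit gene called lower, at -0.29 ± 0.028 (SD, n = 4; limma adjusted p = 0.0116).

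Large subunit genes fell alongside. Mrpl55, the counterpart of bacterial L31, had log2 ratios of -0.32, -0.26, -0.36 and -0.30. Its mean of -0.31 ± 0.039 (SD, n = 4) had a limma adjusted p of 9.3e-05. Mrpl20, homologous to L20, which bacteria need early in large subunit assembly, had -0.71, -0.51, -0.55 and -0.64. All 4 rats were well below 0, with a mean of -0.60 ± 0.091 (SD, n = 4; limma adjusted p = 0.00142). Mrpl28, the L28 homologue, had -0.22, -0.38, -0.29 and -0.28. It averaged -0.29 ± 0.066 (SD, n = 4; limma adjusted p = 0.00309). Mrpl30, the L30 homologue, had -0.60, -0.67, -0.56 and -0.56, a narrow spread around -0.60 ± 0.054 (SD, n = 4; limma adjusted p = 0.00327). Mrpl12, Mrpl13, Mrpl18, Mrpl47 and Mrps30 were also lower, with means between -0.22 and -0.68. For Mrpl47, rat 3592 at -1.98 was far below the other 3, at -0.12, -0.28 and -0.26.

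Mrps11, the homologue of S11 in the small subunit's platform, went the other way. It had 0.28, 0.17, 0.44 and 0.35 after 1500 mg/kg at 6 h, all above 0, with a mean of 0.31 ± 0.11 (SD, n = 4; limma adjusted p = 0.00703). Mrpl46, a large subunit gene that starts 234 bases away in the opposite direction, had -0.23, -0.77, -0.13 and -0.43 in the same rats. Its mean of -0.39 ± 0.28 (SD, n = 4) did not pass the test (limma adjusted p = 0.132), although all 4 rats were below 0. Of other genes that share a start region with a member, Tcp1, a chaperonin subunit that starts 425 bases from Mrpl18, was lower at -0.70 (limma adjusted p = 0.000314) beside Mrpl18 at -0.68 ± 0.14 (SD, n = 4; limma adjusted p = 0.012). Ndufb5, a complex I subunit 244 bases from Mrpl47, was at -0.091 (limma adjusted p = 0.00778), and Mitd1, 194 bases from Mrpl30, was at 0.050 (limma adjusted p = 0.725).

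**Figure D1:**
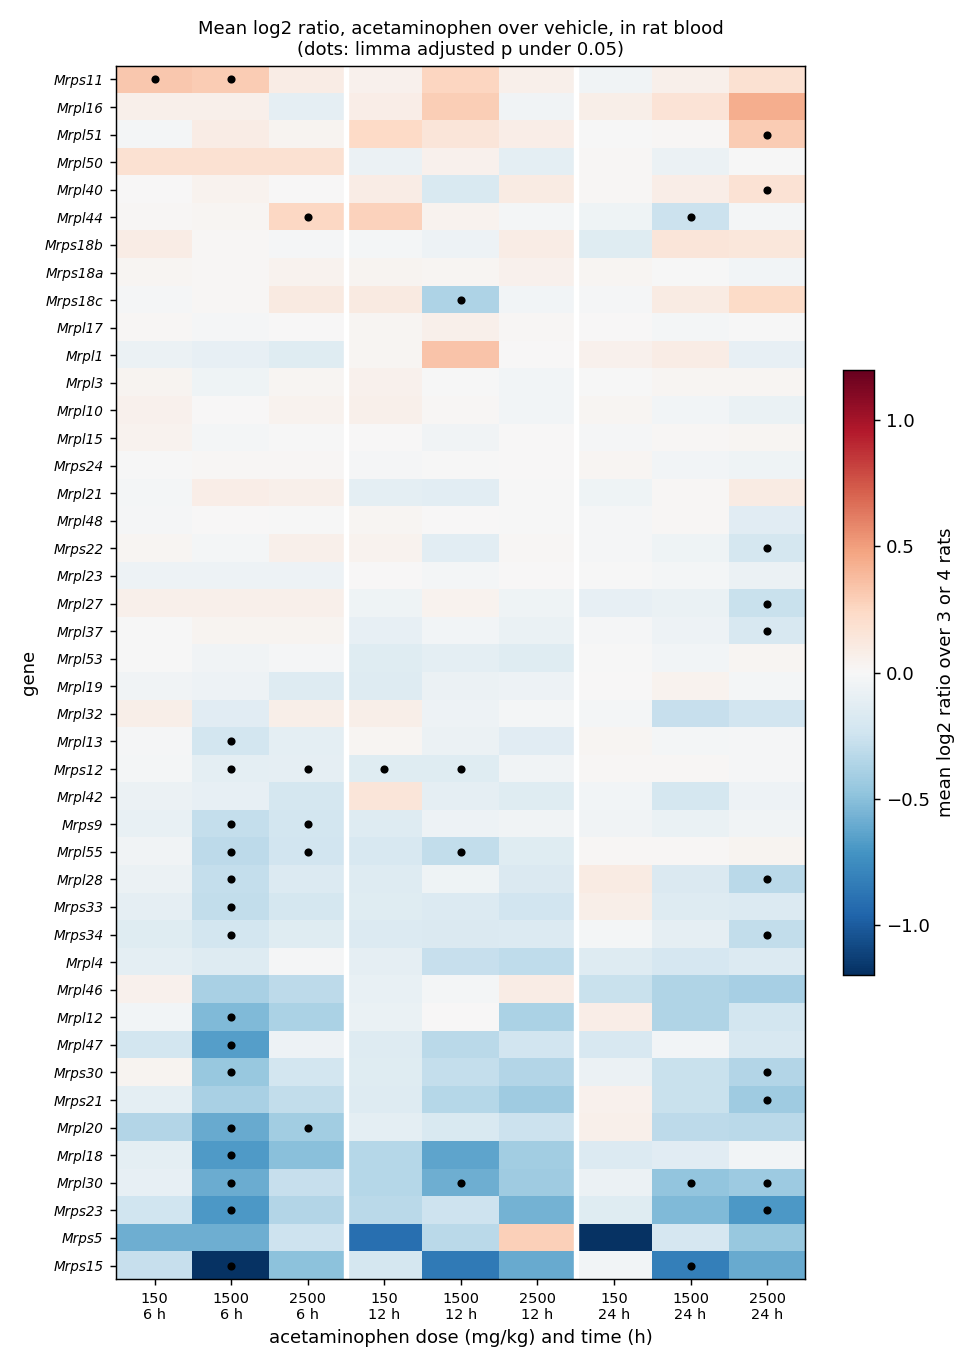
Mean log2 ratio of acetaminophen over vehicle for each of the 44 genes (rows, ordered by their mean) in the 9 dose and time groups (columns), with a dot where limma's adjusted p was under 0.05. Blue is lower and red higher in treated rats. In the 1500 mg/kg column at 6 h 15 genes were called lower and Mrps11 higher, while the 150 mg/kg columns hold 2 dots between them.

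By subunit, 6 of 13 small subunit genes were lower and 1 higher at 1500 mg/kg and 6 h, with a median of -0.22, and 9 of 31 large subunit genes were lower, with a median of -0.059. Among genes with a bacterial homologue 11 of 30 were lower, and among those without one 4 of 14. At 24 h after 2500 mg/kg the counts were 4 lower of 13 small subunit genes and 5 lower and 2 higher of 31 large subunit genes, with 4 of 30 lower among genes with a homologue and 5 lower and 2 higher of 14 without. These are counts only, and the differences between the classes were not tested.

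At 6 h after 2500 mg/kg, 4 genes were lower and 1 was higher, while 5.18% of all genes were lower and 2.54% higher, and the median member ratio was -0.062. The 4 lower genes, Mrps9, Mrps12, Mrpl20 and Mrpl55, were also lower after 1500 mg/kg. Mrps9 had -0.23, -0.069, -0.31 and -0.27, a mean of -0.22 ± 0.10 (SD, n = 4; limma adjusted p = 0.00139). Mrpl55 had -0.25, -0.050, -0.38 and -0.25, a mean of -0.23 ± 0.14 (SD, n = 4; limma adjusted p = 0.0024). In both genes rat 3596 was nearest to 0. Mrpl20 had -0.25, -0.012, -0.81 and -0.61, with a mean of -0.42 ± 0.36 (SD, n = 4; limma adjusted p = 0.0352). Mrps12 had -0.20, -0.049, -0.16 and -0.025, with a mean of -0.11 ± 0.086 (SD, n = 4; limma adjusted p = 0.0313). Both genes thus had 1 or 2 rats near 0 beside others that were clearly lower. The gene called higher was Mrpl44, a protein with an RNase III-like domain, with 0.62, 0.33, -0.022 and 0.084 and a mean of 0.25 ± 0.28 (SD, n = 4; limma adjusted p = 0.047). It was high in rats 3595 and 3596 and near 0 in the other 2. Mrpl18 had the lowest mean of the group, -0.50 ± 0.67 (SD, n = 4; limma adjusted p = 0.0931), from -0.079, 0.14, -1.33 and -0.74.

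The 4 rats of this group differed among themselves. The median over the members was 0.0056 and 0.024 in rats 3595 and 3596, and -0.16 and -0.054 in rats 3597 and 3598. Cytosolic ribosomal protein genes split the same way, with medians of -0.11 and 0.31 in the first pair and -0.89 and -0.65 in the second. Without rat 3596, 10 members were lower, where 6.33% of all genes were lower. Without rat 3595 or 3598, 3 members were lower, where 4.85% and 2.03% of all genes were, and without rat 3597, 1 was lower and 2 higher, where 1.84% of all genes were lower. With arrays scaled to the same spread, 17 members were lower and 2 higher, where 13.2% of all genes were lower, and with widened standard errors 0 were called, where 0.912% of all genes were lower. The call of Mrpl44 was lost in 28 of the 45 alternative analyses.

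After 150 mg/kg at 6 h, Mrps11 was the 1 member called, higher with 0.52, 0.13, 0.37 and 0.27. Its mean was 0.32 ± 0.16 (SD, n = 4; limma adjusted p = 0.023), and no member was lower, against 1.07% of all genes higher and 0.932% lower. Some members lay on the same side of the 6 h control at every dose. Mrps34 was below 0 in 12 of 12 rats at 6 h, between -0.296 and -0.131. Mrpl23, an L23 homologue, was below 0 in 12 of 12 rats, between -0.0892 and -0.0351. In all, 4 members were below 0 in all 12 rats of 6 h and 1 above, 7 were below and 1 above in all 10 rats of 12 h, and 0 were on 1 side in all 12 rats of 24 h. How many of all genes lay on 1 side in the same rats was not counted. All rats of a time were compared with the same control RNA, so a difference shared by the doses and a peculiarity of that control RNA cannot be told apart.

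The direct comparison of doses at 6 h, in which the control cancels, called 0 members between 1500 and 150 mg/kg. Of all genes, 0.0207% were lower and 0.0207% higher there. In this comparison 34 of 44 members were lower at 1500 mg/kg, where 48.5% of all genes were. An unadjusted p under 0.05 was found for 10 members and for 772 of the 9653 genes. The smallest adjusted p of a member was that of Mrpl55 (limma adjusted p = 0.16, means of -0.31 after 1500 mg/kg and -0.044 after 150 mg/kg). Mrps34 averaged -0.22 after 1500 mg/kg, against -0.14 after 150 mg/kg, a difference of -0.077 (SE 0.067; limma adjusted p = 0.884). The fall against vehicle at 6 h was therefore not matched by a called difference between doses. The comparisons of 2500 with 150 and with 1500 mg/kg at 6 h also called 0 members, with 4 and 2 at an unadjusted p under 0.05. Over the 9653 genes, 666 and 272 were at such a p. Of all genes, 0.124% were lower and 0.0207% higher between 2500 and 150 mg/kg, and 0% either way between 2500 and 1500 mg/kg.

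**Figure D2:**
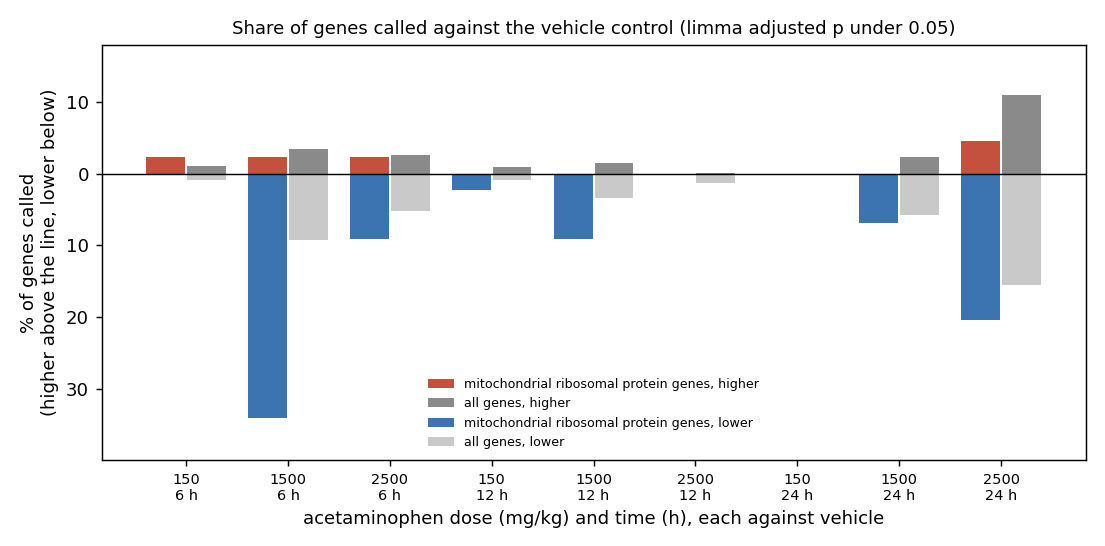
Share of the 44 mitochondrial ribosomal protein genes (red higher, blue lower) and of all 9653 genes (dark and light grey) called against vehicle in each dose and time group, with lower calls drawn below the zero line. The blue bar stands furthest below the grey one at 1500 mg/kg and 6 h, 34.1% against 9.24%, and at 24 h after 2500 mg/kg both bars are long, 20.5% against 15.6%.

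At 24 h after 2500 mg/kg, 9 members (20.5%) were lower and 2 were higher than in the vehicle control. All genes changed more at this point than at any other, with 15.6% lower and 10.9% higher, so the members' share of falls was near that of all genes. Their median ratio was -0.065 and 33 of 44 had a mean below 0, where 50.65% of all genes did. Mrps34 had -0.14, -0.24, -0.25 and -0.54 in the 4 rats. All were below 0, with a mean of -0.29 ± 0.17 (SD, n = 4; limma adjusted p = 5.8e-05). Mrpl28 had -0.20, -0.30, -0.31 and -0.49, again all below 0, and a mean of -0.32 ± 0.12 (SD, n = 4; limma adjusted p = 0.000726). Mrpl27, whose bacterial homologue L27 reaches toward the peptidyl transferase centre, had -0.17, -0.20, -0.12 and -0.58. It averaged -0.27 ± 0.21 (SD, n = 4; limma adjusted p = 0.000561), with rat 3631 the lowest, and -0.17 without it. Mrps22, which has no bacterial homologue and is mutated in some human mitochondrial diseases, had -0.090, -0.11, -0.19 and -0.45, with a mean of -0.21 ± 0.17 (SD, n = 4; limma adjusted p = 0.0015), and of -0.13 without rat 3631.

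Mrpl37, a large subunit protein without a bacterial homologue, had -0.10, -0.044, -0.036 and -0.59. Its mean of -0.19 ± 0.26 (SD, n = 4; limma adjusted p = 0.00596) rested on rat 3631, and without it was -0.060. Mrps23 had -0.54, -0.32, -1.16 and -0.75, the lowest mean of the group at -0.69 ± 0.36 (SD, n = 4; limma adjusted p = 0.0093), and here both probes were lower, at -0.45 (adjusted p = 0.00739) and -0.93 (adjusted p = 0.0365). The other genes called lower were Mrpl30 at -0.44 ± 0.12 (SD, n = 4; limma adjusted p = 0.0181), Mrps30 at -0.35 ± 0.17 (SD, n = 4; limma adjusted p = 0.0195) and Mrps21 at -0.43 ± 0.56 (SD, n = 4; limma adjusted p = 0.0239). Mrps21 had -0.24, 0.024, -0.25 and -1.25, and its mean without rat 3631 was -0.16.

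The 2 genes called higher at 24 h after 2500 mg/kg were Mrpl51 and Mrpl40, both of the large subunit and without bacterial homologues. Mrpl51 had 0.15, 0.054, 0.19 and 0.82 (mean 0.31 ± 0.35, SD, n = 4; limma adjusted p = 0.0111), and without rat 3631 it averaged 0.13 (limma adjusted p = 0.251). Mrpl40 had 0.19, 0.39, 0.14 and -0.033 (mean 0.17 ± 0.17, SD, n = 4; limma adjusted p = 0.0301). Mrpl16, the L16 homologue, had the highest mean, 0.43 ± 0.85 (SD, n = 4), but its rats ran from -0.73 to 1.27 and it did not pass the test (limma adjusted p = 0.0658). Without rat 3631, 6 members were lower and 2 higher in this group, where 10.8% of all genes were lower. The calls of Mrpl30, Mrpl37, Mrps21 and Mrpl51 were then lost and Mrpl15 was called higher. Without rat 3629, 15 members were lower and 3 higher, where 19.3% of all genes were lower. With standard errors widened for the control pool, 4 members stayed called, Mrpl27, Mrpl28, Mrps22 and Mrps34, where 7.22% of all genes were lower.

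The direct comparison of 2500 with 150 mg/kg at 24 h was the only 1 of the 9 dose comparisons, and of the 6 comparisons of dose effects between times, in which a member was called. Both called genes were lower, where 5.09% of all genes were lower and 2.56% higher. Mrpl28 had -0.20, -0.30, -0.31 and -0.49 after 2500 mg/kg, against 0.13, 0.22, 0.11 and -0.049 after 150 mg/kg. The groups did not overlap, and their difference was -0.42 (SE 0.093; limma adjusted p = 0.00471). Mrps34 had -0.14, -0.24, -0.25 and -0.54 after 2500 mg/kg, against -0.049, -0.10, 0.10 and -0.050 after 150 mg/kg. These groups did not overlap either, and they differed by -0.27 (SE 0.067; limma adjusted p = 0.0135). The Mrps34 call was lost without rat 3619 of the 150 mg/kg group, in a fit of the 24 h rats alone, and with rat 3631 taken from its other array alone, which gave a difference of -0.15 (limma adjusted p = 0.0983). With 1 array, the value of that rat was not balanced for the dyes. Over all alternatives the adjusted p of Mrps34 reached 0.262, where that of Mrpl28 reached 0.0369. Without rat 3629, 5 members were lower and 2 higher in this comparison, where 6.34% of all genes were lower. At 1500 mg/kg and 24 h, Mrpl28 was at -0.17 and Mrps34 at -0.10, between the other doses. Neither differed from 150 mg/kg by the test (limma adjusted p = 0.145 for Mrpl28 and 0.722 for Mrps34), where 1.51% of all genes were lower and 0.632% higher.

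**Figure D3:**
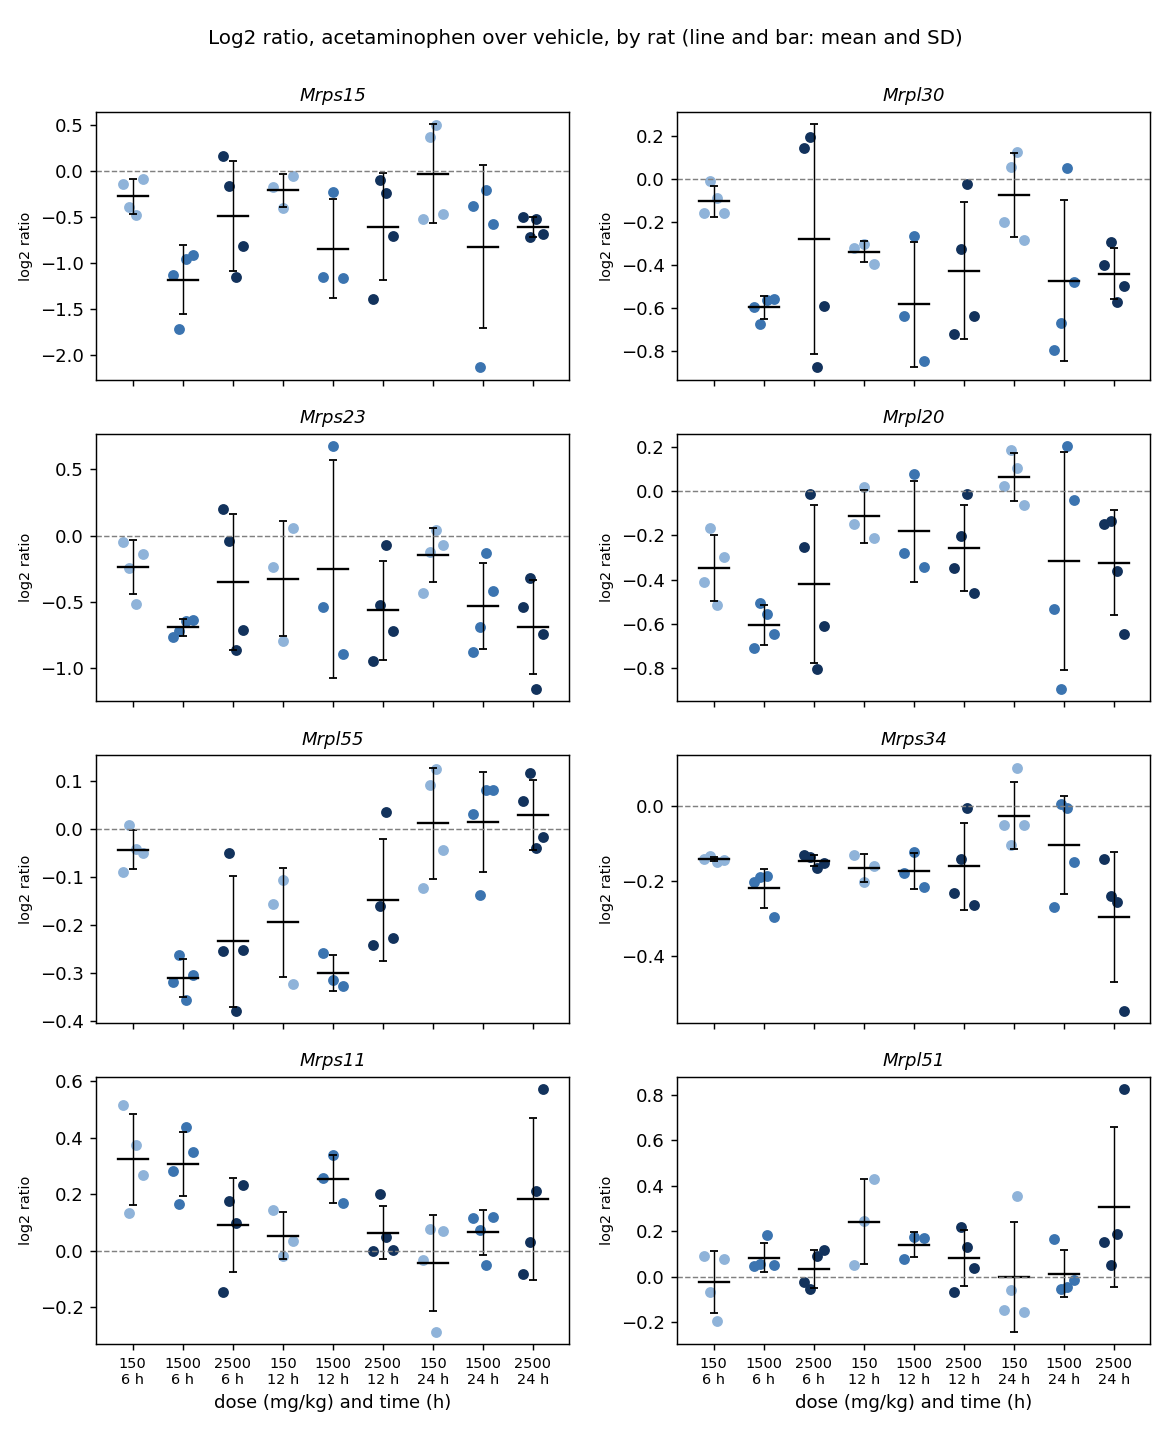
Log2 ratio of 8 genes in each rat (points), with the mean and SD (line and bar), by dose and time. Mrps15, Mrpl30, Mrps23 and Mrpl20 lie low in most high-dose rats with wide spreads, Mrpl55 lies low at 6 and 12 h and around 0 at 24 h, Mrps34 is below 0 at all doses at 6 h, and Mrps11 and Mrpl51 lie mostly above 0.

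After 1500 mg/kg at 24 h, 3 members were lower and none was higher, close to the shares of all genes, 5.74% lower and 2.34% higher. Mrpl30 had -0.80, -0.67, 0.054 and -0.48, with a mean of -0.47 ± 0.38 (SD, n = 4; limma adjusted p = 0.0279). Mrpl44 had -0.23, -0.43, -0.12 and -0.25, with a mean of -0.26 ± 0.13 (SD, n = 4; limma adjusted p = 0.0384), opposite to its call at 6 h after 2500 mg/kg. Mrps15 had -0.38, -2.14, -0.21 and -0.57, a mean of -0.82 ± 0.89 (SD, n = 4; limma adjusted p = 0.037), and -0.39 without rat 3624. Rat 3625 was the closest to 0 in Mrpl30, and without it 9 members were lower, where 8.57% of all genes were lower, whereas without rat 3623, 3624 or 3626 there were 0. After 150 mg/kg at 24 h no member passed the test (1 at an unadjusted p under 0.05, where 316 of the 9653 genes were), and no gene of the whole table did (0%).

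At 12 h after 1500 mg/kg, 4 members were lower, where 3.36% of all genes were lower and 1.48% higher. Leaving out any 1 of the 3 rats of this group left 1 or 2 calls. The share of all genes called in these fits is not given, so this loss cannot be read as particular to the members. Mrpl55 had -0.26, -0.31 and -0.33, with a mean of -0.30 ± 0.037 (SD, n = 3; limma adjusted p = 0.00226). Mrps12 had -0.13, -0.16 and -0.15, with a mean of -0.14 ± 0.015 (SD, n = 3; limma adjusted p = 0.0231). Mrpl30 had -0.64, -0.27 and -0.85, with a mean of -0.58 ± 0.29 (SD, n = 3; limma adjusted p = 0.0304). Mrps18c, 1 of 3 mammalian relatives of bacterial S18, was called at -0.37 ± 0.22 (SD, n = 3; limma adjusted p = 0.0391), but its 2 probes disagreed, with -0.83 (adjusted p = 0.0371) and 0.093 (adjusted p = 0.728). The highest mean was that of Mrpl1, homologous to the stalk protein L1, at 0.34 ± 0.24 (SD, n = 3; limma adjusted p = 0.154).

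After 150 mg/kg at 12 h, 1 member was lower, where 0.922% of all genes were lower and 0.963% higher. This was Mrps12, with -0.039, -0.15 and -0.26 and a mean of -0.15 ± 0.11 (SD, n = 3; limma adjusted p = 0.0384). After 2500 mg/kg at 12 h, 0 members passed the limma test, and 1.29% of all genes were lower and 0.0932% higher. An unadjusted p under 0.05 was found for 15 members and for 1387 of the 9653 genes. The count of 0 members moved under several settings given at the end, and also without rat 4137, whose ratios lay near 0. Without it, 9 members were lower, where 4.86% of all genes were lower: Mrpl4, Mrpl30, Mrpl53, Mrpl55, Mrps21, Mrps23, Mrps30, Mrps33 and Mrps34. Mrps15 had -1.39, -0.10, -0.24 and -0.71 with all 4 rats, the lowest mean at -0.61 ± 0.58 (SD, n = 4; limma adjusted p = 0.228). No gene of the whole table was called between any doses at 12 h (0%), and 3 or 4 members had an unadjusted p under 0.05 in each of those comparisons. Over the 9653 genes, 529 to 665 were at such a p.

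Over the 9 comparisons with vehicle there were 36 lower and 5 higher calls, and the called falls ran from -0.109 to -1.18. They came from 24 of the 44 genes, or 54.5%, against 38.1% of all genes. At least once, 21 members were called lower and 4 higher, with Mrpl44 in both counts, against 22.4% of all genes lower and 16.7% higher. Mrpl30 and Mrps12 were lower in 4 groups each and Mrpl55 in 3, and 10 genes were lower in 2 or more. In means, 15 members were below 0 and 2, Mrps11 and Mrpl51, above 0 in all 6 groups given 1500 or 2500 mg/kg. Calls in 2 or more groups and means on 1 side of 0 in all 6 were not counted over all genes. Mrps15 and Mrps34 were each below 0 in 22 of the 23 rats given these doses. Of the 11 rats given the lowest dose, Mrps15 was below 0 in 9 and Mrps34 in 10, so this sign was not particular to the higher doses. The other 20 members were not called anywhere, and 7 members kept every group mean within 0.1 of 0.

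The genes lower at 6 h after 1500 mg/kg and at 24 h after 2500 mg/kg were partly the same. These comparisons have different rats and different control RNA, and they shared Mrpl28, Mrpl30, Mrps23, Mrps30 and Mrps34, which is 33.3% of the 15 genes of the first and 55.6% of the 9 genes of the second. Of all 9653 genes, 892 were lower in the first and 1506 in the second, and how many of these were shared was not counted. Mrpl55 was lower in the first but not called in the second, with 0.029 ± 0.072 (SD, n = 4; limma adjusted p = 0.695) at 24 h after 2500 mg/kg. Mrpl27 was lower in the second but not called in the first, with 0.063 ± 0.0082 (SD, n = 4; limma adjusted p = 0.537) at 6 h after 1500 mg/kg. The change of a dose effect between times, tested free of the control, called 0 members in any of the 6 comparisons, with 2 to 7 members at an unadjusted p under 0.05. Over the 9653 genes, 496 to 1254 were at such a p. The smallest adjusted p of a member was that of Mrps11 for 2500 minus 150 mg/kg between 24 and 6 h (limma adjusted p = 0.154), where 1.89% of all genes were called in either direction. The other comparisons of this kind called 0.311% and 0% of all genes for 2500 minus 150 mg/kg (24 minus 12 h and 12 minus 6 h), and 0.249%, 0.0104% and 0% for 1500 minus 150 mg/kg (24 minus 6 h, 24 minus 12 h and 12 minus 6 h).

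Other lists of mitochondrial translation genes are given for 6 h after 1500 mg/kg, where 9.24% of all genes were lower and 3.48% higher, and for 24 h after 2500 mg/kg, where 15.6% were lower and 10.9% higher. In both, 0 of 2 further mitoribosomal genes (Dap3 and Gadd45gip1) were called. Of 10 translation factors, 1 was lower at 6 h after 1500 mg/kg, and 2 were lower and 1 higher at 24 h after 2500 mg/kg. Oxa1l, which inserts newly made mitochondrial proteins into the inner membrane, was at -0.14 (limma adjusted p = 0.00444) and at -0.19 (limma adjusted p = 0.000198) in these comparisons. Mtrf1l, a release factor, was at -0.43 (limma adjusted p = 0.0027) and Mrrf, the ribosome recycling factor, at 0.19 (limma adjusted p = 0.0375) in the second. Of 15 assembly and rRNA modification genes, 2 were lower and 1 higher in the first and 3 lower and 2 higher in the second. Among the 3 lower were Dhx30, an RNA helicase of assembly, at -0.23 and Ngrn, which binds the mitochondrial large ribosomal RNA, at -0.42. Of 12 mitochondrial tRNA synthetases, 1 was higher and none lower in each.

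Of 16 genes for replication and transcription of mitochondrial DNA, 1 was lower at 6 h after 1500 mg/kg, and 2 were lower and 2 higher at 24 h after 2500 mg/kg. The single fall was Tfam, which packages mitochondrial DNA and starts its transcription, named here after its values were seen. It averaged -1.52 ± 0.27 (SD, n = 4; limma adjusted p = 4.3e-05) at 6 h after 1500 mg/kg and -0.73 (limma adjusted p = 0.0161) at 24 h after 2500 mg/kg. Of the 53 respiratory chain and ATP synthase genes, 22 were lower and 1 higher at 6 h after 1500 mg/kg, with a median of -0.20, and 27 lower and 1 higher at 24 h after 2500 mg/kg, with a median of -0.25. Cytosolic ribosomal protein genes had medians of -0.62 with 29 of 47 lower in the first comparison and of -0.52 with 28 of 47 lower in the second, where the members' medians were -0.082 and -0.065. These counts are descriptions, and the differences between lists were not tested.

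Markers of blood cell types moved in the same samples. At 6 h after 1500 mg/kg, 7 of 15 T cell markers and 4 of 6 B cell markers were lower, with medians of -0.46 and -0.37, and 3 of 14 neutrophil markers were higher, with a median of 0.095. Within that group the T cell median per rat ran from -0.61 to -0.34 and the neutrophil median from 0.012 to 0.18. At 24 h after 2500 mg/kg, 10 of 15 T cell, 5 of 6 B cell, 5 of 8 platelet and 8 of 19 erythroid markers were lower, and 6 of 14 neutrophil and 2 of 19 erythroid markers were higher. Median ratios there were -0.43 for T cell, -0.29 for B cell, -0.58 for platelet and -0.15 for erythroid markers. Monocyte and macrophage markers had medians of 0.012 at 6 h after 1500 mg/kg and 0.051 at 24 h after 2500 mg/kg, with 2 and 3 of 15 higher and 2 of 15 lower in each. The part that changed proportions of these cells had in the members' ratios was not tested.

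**Figure D4:**
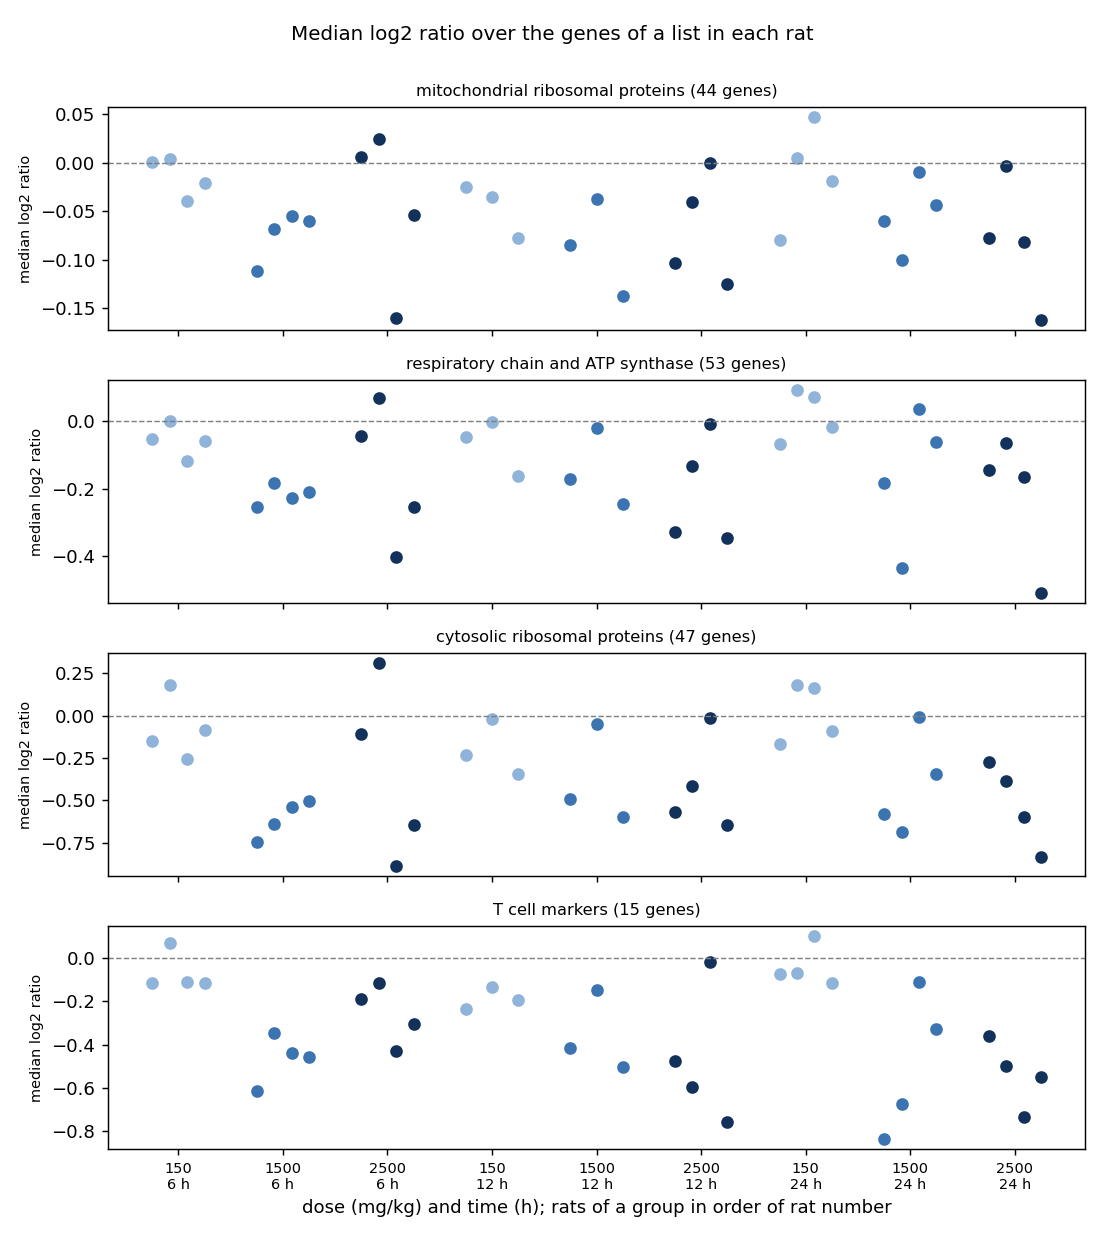
Median log2 ratio in each rat over the 44 mitochondrial ribosomal protein genes, 53 respiratory chain and ATP synthase genes, 47 cytosolic ribosomal protein genes and 15 T cell markers, by dose and time (scales differ between panels). At 6 h after 2500 mg/kg rats 3595 and 3596 lie above rats 3597 and 3598 in all 4 panels, at 12 h rat 4137 lies close to 0, and the members' medians span the narrowest range.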

How the data were processed

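Blood RNA of 34 rats was measured on 68 arrays of 2 colours. The authors deposited 1 log10 ratio per probe and array (22075 probes, limited to ±2, array medians between -0.00352 and 0), whose background correction and normalization are not given in the sources used here. Precision is limited by the number of arrays. Each ratio was turned to acetaminophen over vehicle by the dyes in the labels, assuming Cy5 over Cy3, multiplied by 3.32 to give log2 ratios from the deposited values, and a rat's value is the mean of its 2 arrays. Probes with 1 gene (12750, of which 12720 were named through Entrez identifiers; 5 had several genes and 9320 none) were averaged to 9653 genes.

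All 9 groups were fitted together with limma 3.58.1 in R 4.3.3 (lmFit and eBayes, 25 residual degrees of freedom), for 24 contrasts: each group against vehicle, doses within a time, and changes of dose differences between times. A gene was called where its p, adjusted by Benjamini-Hochberg across all 9653 genes, was under 0.05. The control RNA of a time is 1 sample, so tests against vehicle lack its spread and those between doses do not need it. On simulated data for 2500 mg/kg at 24 h over 9653 genes, the fit recovered 38% of genes changed by 0.25 on the log2 scale, 80% at 0.5, 98% at 1 and 100% at 2, and called 9 of 9453 unchanged genes. The simulation drew independent noise with the fitted spread of each gene and left out any error of the shared control RNA. It therefore cannot show how many false calls the tests against vehicle make.

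Members named with values per rat were the 6 called with the smallest adjusted p in a contrast, the highest and lowest mean of each group, and those called in both directions or with probes that disagreed; further called members are named to complete counts. The members and lists were chosen with earlier results of these data known. Alternatives were array centring and scaling, array weights, removal of the dye profile, other ways to join probes, a fit per time, zeros left out, widened standard errors and each rat left out. Figures and summaries used data.table (version 1.17.8), Python 3.11.15, numpy 2.4.6, pandas 2.3.3 and matplotlib 3.10.9.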

Additional observations from a re-analysis of the deposited data

Results flagged for a closer look

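In 4 of 140 group values of named members, 1 rat lay apart from the other 3 by Dixon's criterion, which chance alone meets in about 1 of 20 groups. Mrpl37 at 24 h after 2500 mg/kg was at -0.585 in rat 3631, where the other rats lay between -0.101 and -0.0358. Mrps34 at 6 h after 1500 mg/kg was at -0.296 in rat 3594, against -0.202 to -0.186 in the others. Mrpl44 at 6 h after 1500 mg/kg was at -0.0429 in rat 3591, against 0.036 to 0.050. Mrps5 at 6 h after 1500 mg/kg was at 0 in rat 3594, against -0.818 to -0.709, and an exact 0 may be a value that was not estimated.

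Among the members named by the rule of smallest adjusted p, every rat of 1 time lay on the opposite side of 0 from every rat of another time at the same dose in 3 genes. The same was not counted over all genes. Mrpl27 after 2500 mg/kg averaged -0.270 at 24 h and 0.0616 at 6 h, a change of -0.332. After 1500 mg/kg it averaged 0.0631 at 6 h, 0.0398 at 12 h and -0.0756 at 24 h, a change at 24 h of -0.139 from 6 h and of -0.115 from 12 h. Mrpl37 after 2500 mg/kg averaged 0.0343 at 6 h, -0.0792 at 12 h and -0.192 at 24 h, a change from 6 h of -0.113 at 12 h and of -0.226 at 24 h. Mrpl44 after 1500 mg/kg averaged -0.259 at 24 h and 0.0447 at 12 h, a change of -0.304. Each time had its own control RNA, so these differences were not tested as such. The change of the difference from 150 mg/kg between the same times, which is free of the control, was not called in any of them (limma adjusted p = 0.505 for Mrpl27 and 0.336 for Mrpl37 between 24 and 6 h after 2500 mg/kg, and 0.968 or more for the other 4).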

How the results depend on the processing

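The direction of all 43 called results was kept under all 45 alternatives. Widened standard errors, a fit per time and leaving out a rat of a group not compared do not change a group's mean. Under these the direction could not turn, so most of the alternatives do not test it. Counts of called members moved. They were 1, 16 and 5 at 6 h after 150, 1500 and 2500 mg/kg, 1, 4 and 0 at 12 h, 0, 3 and 11 at 24 h, and 2 for 2500 against 150 mg/kg at 24 h. Standard errors widened for the control pool gave 0, 2 and 0 at 6 h, 0 after 150 and 1500 mg/kg at 12 h, and 0 after 1500 and 4 after 2500 mg/kg at 24 h. The pool sizes were those of the design text. Array weights gave 9, 28 and 26 at 6 h, 14, 12 and 18 at 12 h, and 21 after 1500 mg/kg at 24 h, where up to 27.2% of all genes were lower and up to 26.1% higher. Scaled arrays gave 2 after 150 and 19 after 2500 mg/kg at 6 h, 7 after 150 mg/kg at 12 h, and 0 after 1500 mg/kg at 24 h. A fit per time, with fewer rats, gave 3 after 150 and 9 after 2500 mg/kg at 6 h, 0 after 150 and 2 after 1500 mg/kg at 12 h, 0 after 1500 and 6 after 2500 mg/kg at 24 h, and 1 for 2500 against 150 mg/kg at 24 h. The probe-level fit gave 1 after 1500 mg/kg at 24 h. Using the other array alone for rat 3631, chosen after seeing the data, gave 2 after 150 mg/kg at 6 h, 4 after 150 and 3 after 2500 mg/kg at 12 h, and 1 for 2500 against 150 mg/kg at 24 h. That rat's value was then not balanced for the dyes. The share of all genes called also moved under the settings for which it is given above, so these counts do not describe the members alone. Where that share is not given, the count of members cannot be set against it. The cause of these moves was not tested.

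Leaving out each rat in turn gave 0 to 2, 9 to 19 and 3 to 10 members at 6 h after 150, 1500 and 2500 mg/kg, 0 to 6, 1 to 6 and 0 to 9 at 12 h, 0 to 0, 0 to 9 and 8 to 18 at 24 h, and 2 to 7 for 2500 against 150 mg/kg at 24 h. Without rat 3631, 8 members were called at 6 h after 2500 mg/kg, 6 at 12 h after 150 mg/kg and 5 at 12 h after 2500 mg/kg. Where the share of all genes is given above for a rat left out, it moved as well. For the other fits that share is not given, so their counts cannot be read as particular to the members. Of the 28 called results with the 6 smallest adjusted p of their comparison, widened standard errors ended 20, the fit per time 11, scaling 5, array weights 4, the probe-level fit 3, the other array of rat 3631 alone 2, and leaving out some rat 15. Array centring, removal of the dye profile, the median over probes, the probe with the widest spread and zeros left out ended 0. No paired analysis was possible because the groups share no rat numbers. Small changes are limited by the number of rats.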
